A study of Mus musculus with 4 samples.

Results

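This account follows 10 genes of the semaphorin-plexin and Slit-Robo guidance systems in Py-4-1, a mouse hemangioendothelioma cell line. They are the plexin receptor genes Plxnd1, Plxna1, Plxna2 and Plxnb2, the semaphorin ligand genes Sema3a, Sema3c, Sema3f and Sema4d, the ligand gene Slit2 and its receptor gene Robo1. All 16 probe sets that the platform annotation gives to one of these symbols alone were kept, out of 22690 on the array. The 4 arrays hold RNA of 2 Py-4-1 clones transfected with pcDNA, the control plasmid, and of 2 clones transfected with pcDNA/Prox1, which the labels call stable Prox1-expressing clones. Each clone was measured on 1 array, so the spread within a group is that between single clones and cannot be told apart from culture or array handling. The promoter that drives Prox1 in the plasmid is not given in the sources used here.

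Semaphorins are secreted or membrane-bound ligands that steer growing axons and migrating cells, and plexins are the receptors that carry their signal into the cell. Secreted semaphorins such as Sema3a bind a neuropilin co-receptor that sits beside a plexin, and the plexin's inner domain acts on small GTPases that control integrin adhesion and the actin skeleton. Slit proteins are large secreted ligands of the Robo receptors and act on the same cytoskeletal machinery. In blood vessels these systems are known for guiding sprouts, with Plxnd1 as the plexin most closely tied to endothelium.

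The arrays carried endothelial transcripts and few neuronal ones. Of 11 endothelial markers, 9 exceeded on every array the highest of 27 probe sets for Bacillus genes, which match no mouse gene and serve here as a background level (45.3 and 101 in the controls, 88.4 and 97.5 in the Prox1-labelled pair). Erg and Cldn5, an endothelial transcription factor and a tight junction protein, exceeded it on 1 array each. Of 8 neuronal markers, 0 did so on every array, while 2 of 5 leukocyte, 1 of 5 epithelial and 2 of 7 mesenchymal markers did. The Prox1 probe set read 52.1 and 60.5 in the controls against 62.4 and 44.3 in the Prox1-labelled pair, so it does not separate the groups. It exceeded the highest Bacillus probe set in control clone 1 alone, so it read near background. No source used here says whether it lies in the transfected sequence. Every direction below is that of the labels.

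No member passed the test between the groups: 0 of 16 probe sets had a limma adjusted p under 0.05. In the filtered fit, which holds 8 of the 16, 0.103% of all probe sets tested did. In the unfiltered fit, from which the other 8 are read, 0% did. Values are analysed as log2(intensity + 47), and each log2 change is the mean of the Prox1-labelled clones minus that of the controls, with its standard error. At an unadjusted limma p under 0.05 there were 4 of the 8 members in the filtered fit, against 14.5% of all tested. They were the probe set of Plxnd1, 1 of Slit2 and 2 of Sema3a. In the fit without the intensity filter, which holds all 16, there were 2, against 10.2%. These were Plxnd1 and Slit2 1424659_at, while the Sema3a probe sets no longer reached it. The 8 probe sets of Plxnd1, Plxna2, Plxnb2, Sema3a (2), Sema3f (2) and Slit2 (1) passed the filter, which asks for an intensity above the array's median on at least 2 arrays. The other 8, among them all those of Plxna1, Sema3c, Sema4d and Robo1, are read from the unfiltered fit. Of those that passed, Slit2 1424659_at was above the median in the Prox1-labelled clones alone, and Sema3a 1449865_at in the controls alone. Both entered the filtered fit through the group where they read higher. Their place in the count of 4 is therefore not independent of the filter.

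**Figure D1:**
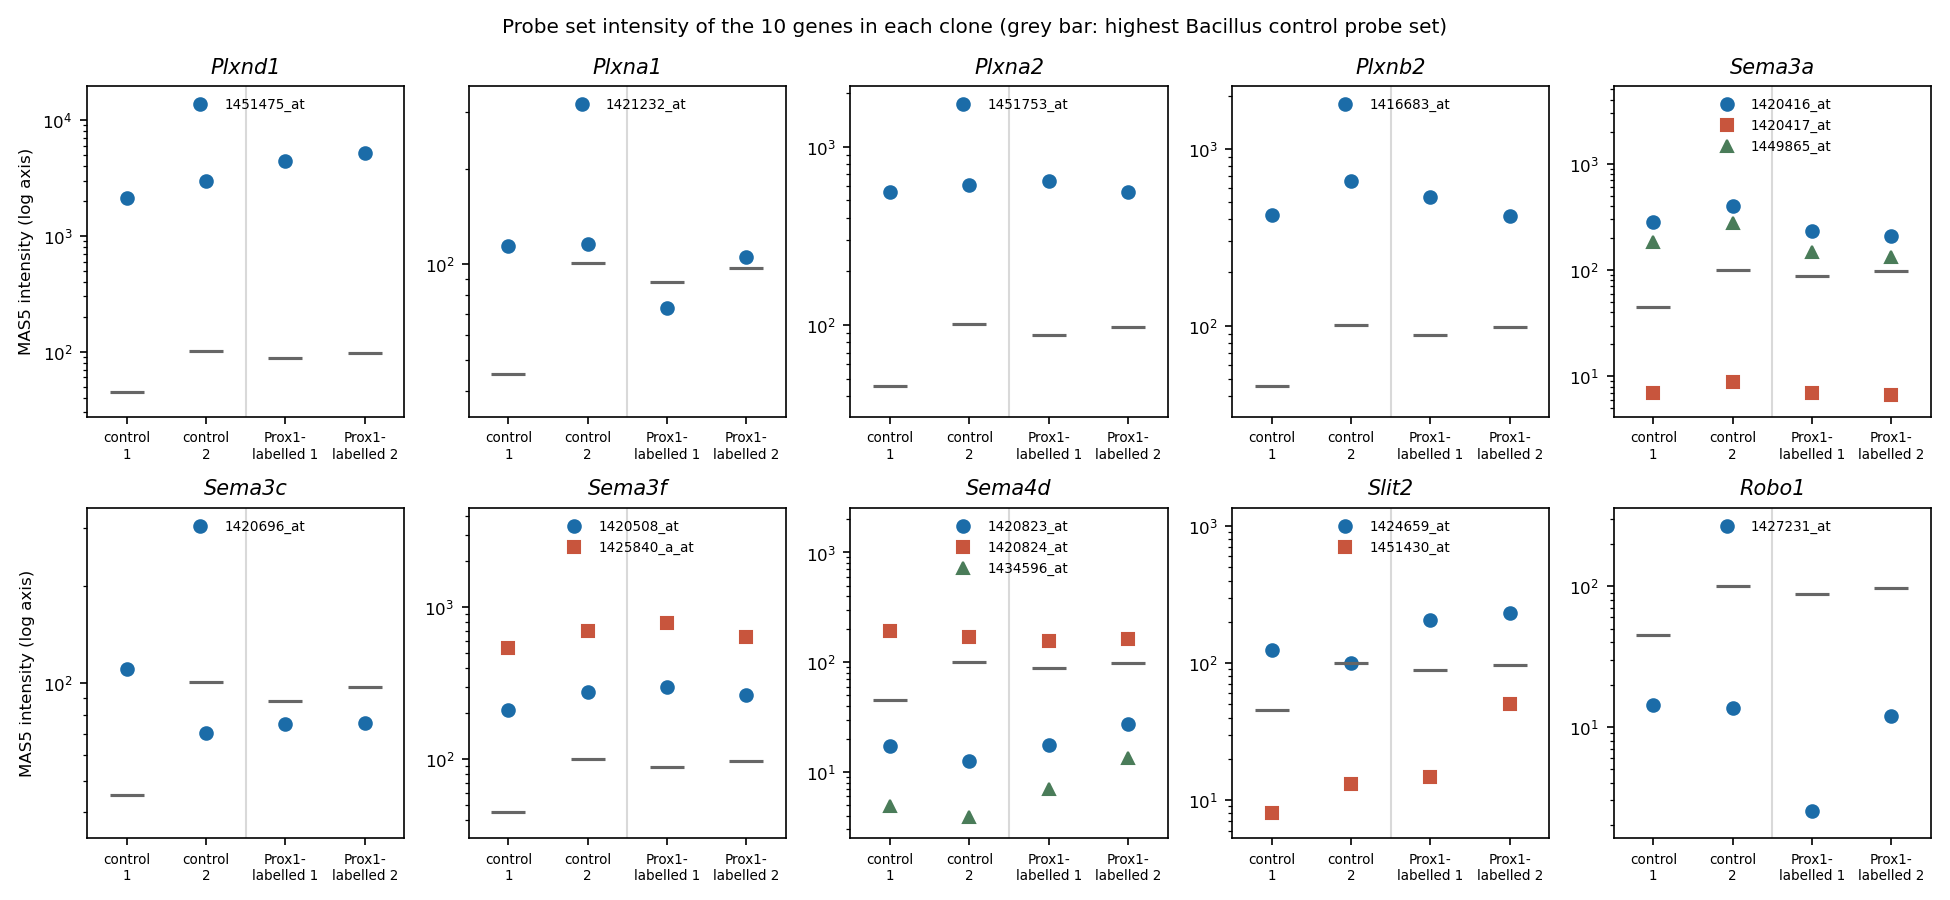
Intensity of each probe set (MAS5, log axis, 1 panel per gene) in the 4 clones, with 1 point per array and a grey bar at the highest Bacillus control probe set of that array. Plxnd1 lies far above the bar in all clones and highest in the Prox1-labelled ones, while Robo1 lies under it on every array.

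Among the plexin receptors, Plxnd1 had the largest positive log2 change of the 16 probe sets. Plxnd1, a receptor for Sema3e and a regulator of vascular patterning, read 2117 and 2954 in the control clones, numbered 1 and 2, against 4411 and 5163 in Prox1-labelled clones 1 and 2. Both Prox1-labelled clones were above both controls, and control clone 1 was the lowest. The means were 2535 ± 592 (SD, n = 2) and 4787 ± 532, a ratio of 1.89. The log2 change was 0.92 ± 0.21 (95% interval 0.45 to 1.39, limma adjusted p = 0.147), so it did not pass. The control clones differed from each other by 0.47 and the Prox1-labelled clones by 0.22 on the same scale. Without control clone 2 the change was 1.16, and without control clone 1 it was 0.68. Such fits hold no spread of the group that is left with 1 clone.

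Endothelial markers were also higher on balance, and their part in the Plxnd1 value was not tested. Each of the 9 markers that passed the filter was positive in log2 change (median 0.19), and 4 of them were higher without overlap, where 23.9% of all probe sets tested were. Without control clone 1, 6 of the 9 were positive (median 0.15), and without control clone 2 all 9 were (median 0.60). The summed intensity of the 11 markers ran from 26820 to 33847 in the control clones and from 34691 to 37181 in the Prox1-labelled clones, with control clone 1 lowest, and 0 markers were at 0. Tek, the angiopoietin receptor, gave 0.92 (limma adjusted p = 0.166). In bulk RNA, fewer cells with a transcript and less of it per cell cannot be told apart.

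Start regions are printed for Plxnd1, Slit2 and Sema3a, the members with the smallest unadjusted limma p, a choice made after the values were seen. That of Plxnd1 comes first. It is the RefSeq stretch from 250 bases before to 50 bases after the annotated start, at chr6:115994956-115995255 on the minus strand of GRCm38.p6, printed 5′ to 3′. Capitals mark GGGCGG (GC box) and GGGCGTGG (a CACCC-type box), on either strand.

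Plxnd1: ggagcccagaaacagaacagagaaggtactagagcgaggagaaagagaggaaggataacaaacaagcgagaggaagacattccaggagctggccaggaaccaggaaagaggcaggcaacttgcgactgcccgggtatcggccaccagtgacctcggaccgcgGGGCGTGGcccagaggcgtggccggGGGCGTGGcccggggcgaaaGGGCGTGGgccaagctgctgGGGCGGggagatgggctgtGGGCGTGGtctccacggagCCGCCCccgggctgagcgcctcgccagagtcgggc

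GGGCGTGG occurs 4 times, beginning 88, 63, 43 and 4 bases before the start, and 5.33% of the 32851 promoters in the table hold it at least once. Motifs were chosen with the results known, and GGGCGTGG after this sequence was read. GGGCGG occurs 2 times, and 35.7% of promoters hold it. The marked sites do not overlap each other. These matches are descriptions of the letters and not of binding, and no array value here bears on either site.

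The other plexins gave smaller differences. Plxna1, a receptor of neuropilin-bound semaphorins, read 114 and 116 in the controls against 73.1 and 105 in the Prox1-labelled pair. The groups did not overlap, but the value of Prox1-labelled clone 1 was under the highest Bacillus probe set, and the log2 change was -0.26 ± 0.24 (adjusted p = 0.765, unfiltered fit). Plxna2, of the same subfamily, read 561 and 607 against 641 and 556. Its groups overlapped, and its log2 change of 0.031 ± 0.19 (95% interval -0.41 to 0.47, adjusted p = 0.964) turned to -0.023 without control clone 1, to -0.064 without Prox1-labelled clone 1 and to -0.014 under median centring.

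Plxnb2, a receptor of membrane-bound semaphorins, read 421 and 661 in the controls against 537 and 415 in the Prox1-labelled pair. The groups overlapped, with control clone 2 the highest and Prox1-labelled clone 2 the lowest. Its log2 change was -0.15 ± 0.25 (95% interval -0.71 to 0.41, adjusted p = 0.833). It was 0.15 without control clone 2 and 0.021 without Prox1-labelled clone 2, so its direction is not settled.

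**Figure D2:**
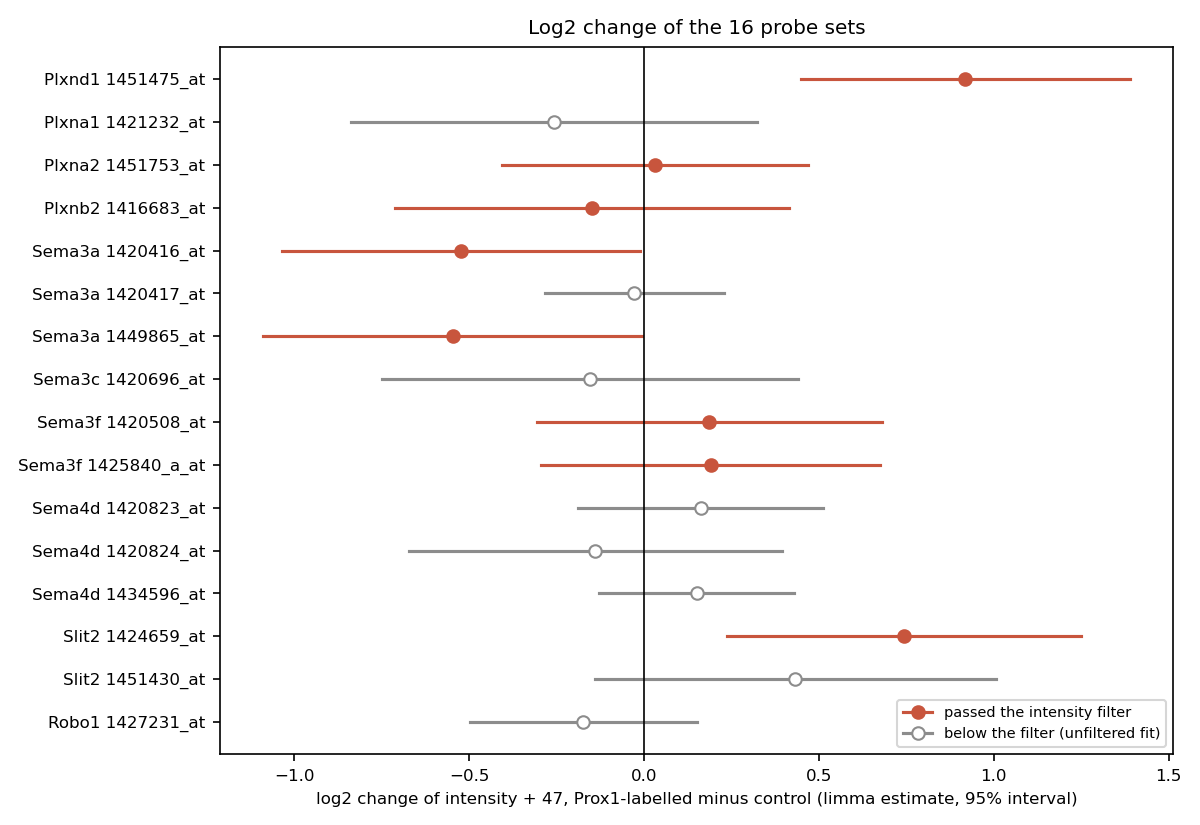
Log2 change of each of the 16 probe sets (Prox1-labelled minus control, intensity + 47), with the limma estimate as a point and its unadjusted 95% interval as a line, and open grey points for probe sets read from the unfiltered fit. In the filtered fit the intervals of Plxnd1, of Slit2 1424659_at and of Sema3a 1420416_at and 1449865_at exclude 0, and 0 of the 16 passed after adjustment. Without the filter those of Sema3a do not exclude 0.

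Among the secreted semaphorins, Sema3a read lower in both Prox1-labelled clones on its pair of measurable probe sets. Sema3a, which repels axons through neuropilin-1 and A-type plexins and is known to restrain endothelial migration, has 3 probe sets designed from 1 sequence record. Probe set 1420416_at read 283 and 398 in the controls against 232 and 208 in the Prox1-labelled pair. Both Prox1-labelled values lay under both controls, and control clone 2 was the highest. The means were 340.4 ± 81.8 (SD, n = 2) and 219.8 ± 17.0, a ratio of 0.646. The log2 change was -0.52 ± 0.23 (limma adjusted p = 0.333).

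Probe set 1449865_at of Sema3a had the same order of clones. It read 185 and 275 in the controls against 147 and 134 in the Prox1-labelled pair, and its log2 change was -0.55 ± 0.24 (adjusted p = 0.341). Neither value passed, and since both probe sets read the same transcript in the same RNA they are not independent. In the fit without the filter neither had an unadjusted p under 0.05 (limma adjusted p = 0.523 and 0.541). Without control clone 2 the changes were both -0.31, and without control clone 1 they were -0.74 and -0.78. The third probe set, 1420417_at, read between 6.64 and 8.86 on all arrays, under the highest Bacillus probe set throughout.

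The Sema3a start region differs in composition from that of Plxnd1. It lies at chr5:13396534-13396833 on the plus strand of GRCm38.p6 and holds neither GGGCGG, GGGCGTGG nor TATAAA. Capitals mark CANNTG (the E-box), which reads the same way on both strands.

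Sema3a: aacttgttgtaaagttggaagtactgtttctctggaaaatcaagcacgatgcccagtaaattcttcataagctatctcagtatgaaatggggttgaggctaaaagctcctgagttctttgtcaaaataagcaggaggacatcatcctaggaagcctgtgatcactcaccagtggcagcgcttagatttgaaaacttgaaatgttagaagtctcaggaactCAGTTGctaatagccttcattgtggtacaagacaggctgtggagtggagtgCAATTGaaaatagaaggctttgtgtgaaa

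Its GC content was 41.3%, against 67.0% for Plxnd1 and a median of 52.7% over the promoters in the table, and it held 2 CG pairs where Plxnd1 held 23. CANNTG occurs 2 times in Sema3a and not in the Plxnd1 window, and 72.3% of promoters hold it. A start site in the table need not be the one used in these cells.

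Sema3f and Sema3c did not separate the groups. Sema3f, a ligand of neuropilin-2, read 211 and 276 in the controls against 301 and 263 in the Prox1-labelled pair on 1420508_at. Probe set 1425840_a_at, designed from another record, read 537 and 702 against 785 and 638. On both, control clone 1 was lowest, Prox1-labelled clone 1 highest and the groups overlapped. The log2 changes were 0.19 ± 0.22 (adjusted p = 0.756) and 0.19 ± 0.21 (adjusted p = 0.743), and without control clone 1 they were 0.024 and 0.012.

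Sema3c, a secreted semaphorin known from heart outflow tract development, read 111 and 70.0 in the controls against 74.8 and 75.7 in the Prox1-labelled pair. It exceeded the highest Bacillus probe set in control clone 1 alone. Its log2 change was -0.15 ± 0.24 (adjusted p = 0.877, unfiltered fit) and 0.063 without control clone 1.

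Sema4d, a membrane-bound semaphorin that signals through B-type plexins, has 3 probe sets, of which 1 read above the Bacillus level. Probe set 1420824_at read 192 and 170.3 in the controls against 157 and 163 in the Prox1-labelled pair. The groups did not overlap, with a log2 change of -0.14 ± 0.22 (95% interval -0.67 to 0.39, adjusted p = 0.875, unfiltered fit). The other probe sets read from 12.6 to 27.4 (1420823_at) and from 3.93 to 13.4 (1434596_at), under the highest Bacillus probe set on all arrays. Both had positive log2 changes, 0.16 and 0.15, so the sign differs from that of the brighter probe set.

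The Slit-Robo members gave the second largest change. Slit2, a secreted ligand of Robo1 that guides axons and endothelial cells, read 124 and 99.4 in the control clones, numbered 1 and 2, against 206 and 231 in Prox1-labelled clones 1 and 2 on 1424659_at. Both Prox1-labelled clones were above both controls, and control clone 2 lay just under the highest Bacillus probe set of its array. The means were 112 ± 17.6 (SD, n = 2) and 218 ± 17.1, a ratio of 1.95. The log2 change was 0.74 ± 0.22 (95% interval 0.24 to 1.25, limma adjusted p = 0.206), so it did not pass. It was 0.97 without a pseudocount and 0.46 with the pseudocount of 173, while leaving out a clone gave 0.63 to 0.86.

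The other Slit2 probe set, 1451430_at, comes from the same sequence record. It read 8.10 and 13.1 in the controls against 14.8 and 50.5 in the Prox1-labelled pair, under the highest Bacillus probe set on every array. Its log2 change of 0.43 ± 0.23 (adjusted p = 0.594, unfiltered fit) rested on Prox1-labelled clone 2 and was 0.10 without that clone.

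The Slit2 start region lies at chr5:47982905-47983204 on the plus strand of GRCm38.p6. It can be set against that of Plxnd1, the other member with a large positive change. Capitals mark GGGCGG and TATAAA, on either strand.

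Slit2: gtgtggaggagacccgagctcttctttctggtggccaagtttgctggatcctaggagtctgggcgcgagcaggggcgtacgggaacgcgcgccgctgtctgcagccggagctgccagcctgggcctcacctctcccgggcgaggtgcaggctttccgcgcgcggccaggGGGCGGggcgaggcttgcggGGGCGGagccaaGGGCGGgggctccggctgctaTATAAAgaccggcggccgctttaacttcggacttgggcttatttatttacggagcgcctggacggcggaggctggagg

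GGGCGG occurs 3 times, beginning 81, 61 and 49 bases before the start, and TATAAA begins 28 bases before it. TATAAA is held by 13.6% of the promoters in the table. GGGCGTGG, found 4 times at Plxnd1, is not in this window. The GC content was 68.0%. Among members with smaller changes it was 64.7% for Plxna2, 61.7% and 70.3% for Plxnb2 and 75.7% for Sema3c. It was 51.0% to 56.0% for Sema4d and 57.0% for Robo1. The windows of Plxna2, Plxnb2 and Sema3c also hold GGGCGG. A link between start region and direction of change was not tested. CCAAT, which 37.4% of promoters hold, is in none of the sequences of Plxnd1, Sema3a and Slit2 printed here.

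Robo1, the Slit receptor on the list, read within the Bacillus range. Its probe set read 14.4 and 13.7 in the controls against 2.52 and 12.0 in the Prox1-labelled pair, under the highest Bacillus probe set on every array. The log2 change was -0.17 ± 0.13 (adjusted p = 0.710, unfiltered fit).

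Across the 16 probe sets, the groups were separate for 10, of which 5 were higher and 5 lower with the Prox1 label, where 41.1% of all probe sets did not overlap (20.9% higher and 20.2% lower). Of these 10, the 4 probe sets of Plxnd1, Sema3a (2) and Sema4d 1420824_at exceeded the highest Bacillus probe set on all arrays. Another 4, of Sema4d (2), Slit2 1451430_at and Robo1, were under it on all arrays, where the order of clones is within the background range.

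**Figure D3:**
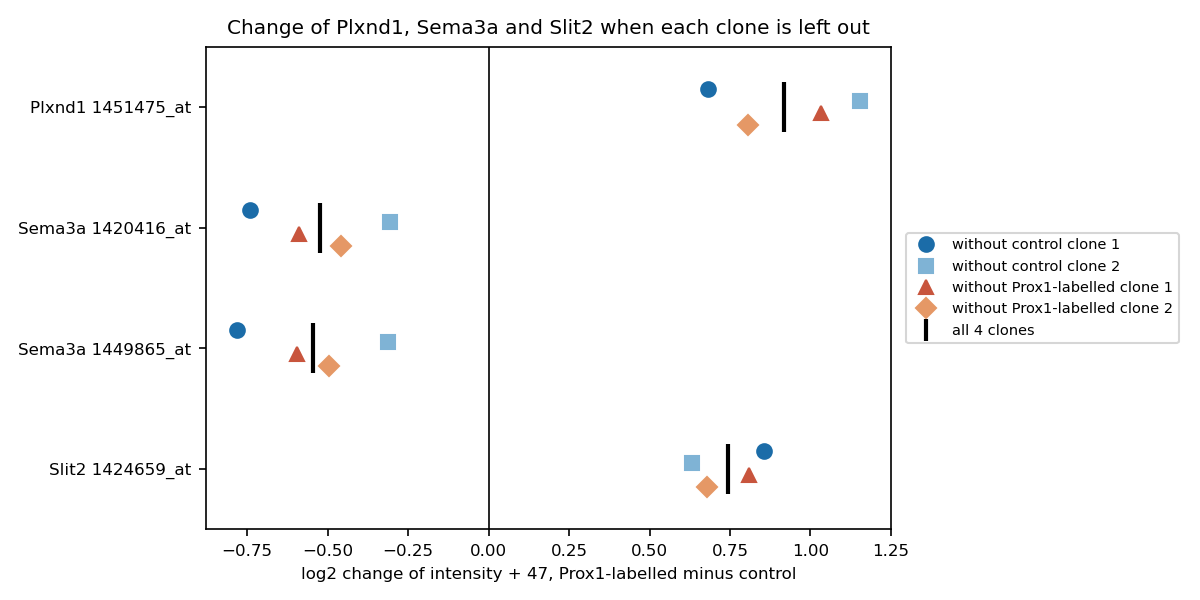
Log2 change (Prox1-labelled minus control, intensity + 47) of the 4 probe sets with an unadjusted p under 0.05 in the filtered fit, over all 4 clones (black bar) and with each clone left out (coloured points). Plxnd1 runs from 0.68 to 1.16, Slit2 from 0.63 to 0.86, and both Sema3a probe sets from -0.78 to -0.31. The groups of these 4 probe sets do not overlap, so leaving out a clone could not change a sign.

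The wider guidance pathways gave no call either. Of 97 other genes listed by role, 81 were on the array and 47 passed the filter, of which 0 passed the limma test in either direction, and 3 had an unadjusted p under 0.05. The median log2 change over the 47 was -0.070, with 19 positive and 28 negative, against 0.012 over all probe sets tested, of which 51.5% were positive. Without control clone 2 the median was 0.0062. Without overlap between groups were 9 higher and 12 lower, where 23.9% and 22.3% of all probe sets tested were.

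Of the other plexins and co-receptors, the 4 genes tested, Nrp1, Nrp2, Met and Plxna3, all had positive log2 changes (median 0.19), with that of Plxna3 turning negative under quantile normalization, under median centring and without control clone 1 or Prox1-labelled clone 2. Nrp1, which binds Sema3a and VEGF, read 1324 and 1619.8 in the controls against 2129 and 1972 in the Prox1-labelled pair on its brightest probe set. These did not overlap, with a log2 change of 0.47 ± 0.19 (limma adjusted p = 0.302). Its other probe sets gave 0.23, with overlap, and 0.41, without. Nrp2, which binds Sema3f, read 464 and 489.6 against 573 and 518 and gave 0.18 (adjusted p = 0.734).

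The other semaphorins were mostly dim, with 3 of 13 genes on the array passing the filter. All 3, Sema6b, Sema6c and Sema6d, which encode transmembrane semaphorins, had negative log2 changes without overlap (median -0.38). Of all probe sets tested, 22.3% were lower without overlap. Sema6c read 518 and 387 in the controls against 286 and 386 in the Prox1-labelled pair (-0.38 ± 0.23, adjusted p = 0.484), while its 2 dimmer probe sets, below the filter, gave 0.73 and 0.052. Sema6b read 244 and 323 against 174 and 240.5 (-0.38 ± 0.24, adjusted p = 0.505). The lower control and the higher Prox1-labelled clone lay close together, at 387 and 386 for Sema6c and 244 and 240.5 for Sema6b. Sema3e, the ligand of Plxnd1, was chosen for mention after its values were seen. Its 3 probe sets read from 9.35 to 124 and were below the array median on every array.

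Robo4, the endothelial Robo receptor, read 269 and 676 in the controls against 506 and 487 in the Prox1-labelled pair. The Prox1-labelled clones lay between the controls, and the log2 change was 0.19 ± 0.34 (adjusted p = 0.851). Without control clone 2 it was 0.78, and without control clone 1 it was -0.41. Dag1, which encodes dystroglycan, a Slit-binding surface protein, gave -0.071 (adjusted p = 0.902) on its brightest probe set. Its other probe sets gave 0.17, without overlap, and -0.077 and -0.16, with overlap. Of 8 genes of this list on the array 4 were tested, with a median of -0.042 (0.026 without Prox1-labelled clone 1).

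Among plexin effectors, 5 of the 20 genes tested were positive and 15 negative, with a median of -0.094 (3 and 17 under median centring, 9 and 11 without control clone 2). Dpysl3, a collapsin response mediator, read 1681 and 1964 in the controls against 1400.0 and 1120.0 in the Prox1-labelled pair (-0.52 ± 0.20, limma adjusted p = 0.287). Rap1a, a small GTPase of the family that plexins inactivate, read 2453 and 2299.9 against 3055 and 2918 (0.32 ± 0.17, adjusted p = 0.426). Both were without overlap between the groups.

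Among Robo effectors, 9 of the 13 genes tested were positive, with a median of 0.18 (7 of 13 under median centring). Vasp, an actin filament elongation factor, read 863 and 1281 in the controls against 1550.3 and 1637 in the Prox1-labelled pair (0.58 ± 0.22, limma adjusted p = 0.288). Without control clone 2 its log2 change was 0.85. Pak2, a kinase activated by Rac and Cdc42, read 1009 and 980.2 against 854 and 709 (-0.34 ± 0.19, adjusted p = 0.465). Its dimmer probe set gave -0.011, with overlap. In the netrin and RGM list, 3 genes were tested and all had negative log2 changes with overlap, of which 2 turned positive without control clone 2. Unc5b, an endothelial netrin receptor, read 190.4 and 309 against 224 and 98.8 (-0.55 ± 0.33, adjusted p = 0.483), and Neo1, which encodes neogenin, read 494 and 761 against 687 and 429 (-0.16 ± 0.27, adjusted p = 0.837).

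**Figure D4:**
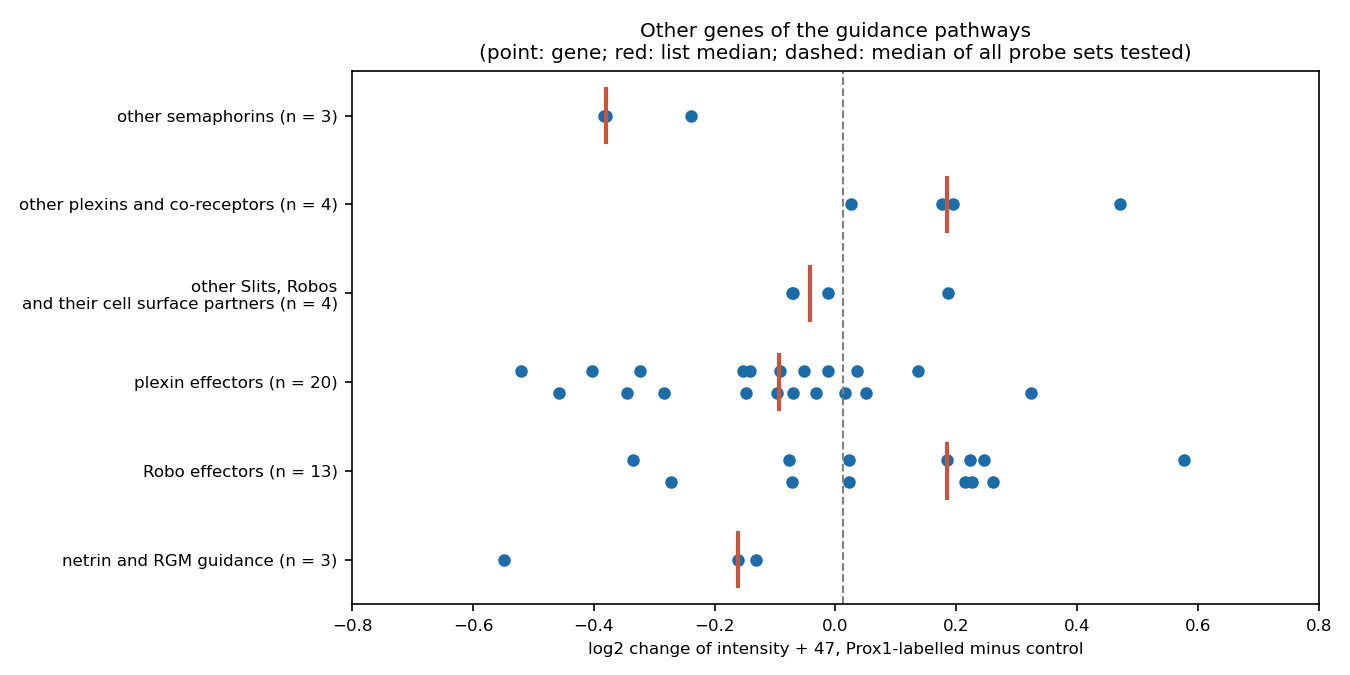
Log2 change (Prox1-labelled minus control, intensity + 47) of the 47 other guidance genes tested, 1 point per gene in 6 lists, with the list median in red and the median of all probe sets tested (0.012) as a dashed line. All points lie between -0.55 and 0.58, and 0 of them passed the limma test. Dimmer probe sets of these genes are not shown, and some lie outside this range in either direction.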

How the data were processed

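RNA of each clone was hybridised to a one-colour Affymetrix array (4 in all), and groups follow the sample titles. The deposited values are linear intensity per probe set, and the authors used MAS5 per the submitters' processing notes, with no version given in the sources used here. The deposited column of control clone 1 has a 2% trimmed mean of 500. Median intensities of the 4 arrays ran from 163 to 179.7, and no further normalization was applied.

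Values were taken as log2(intensity + 47), 47 being the 25th percentile of all values, a scale on which dim probe sets change less. After leaving out 64 Affymetrix controls, the 11656 probe sets above their array's median on at least 2 arrays entered lmFit and a trended eBayes (2-sided; limma 3.58.1, R 4.3.3). P-values were adjusted by Benjamini-Hochberg over all of these, with a threshold of 0.05. Members below the filter were read from the same fit over 22626 probe sets. In simulated data for this comparison over 11656 probe sets, recovery depended on the spread assumed. With each probe set's own residual SD, the first version, 8% of 2-fold and 80% of 4-fold changes were recovered, with 1 false call among 89. With limma's posterior variances, chosen after that outcome was seen, 74% and 100% were recovered, with 16 false calls among 190. An exact permutation test of 2 against 2 cannot go below 0.333 and was not used. The number of arrays limits the precision.

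All 16 member probe sets kept their symbol by Entrez identifier in the RefSeq table of GRCm38.p6. Promoters came from RefSeq on GRCm38.p6, where 8 of the 10 members matched. A gene of a pathway list is represented by its probe set with the highest mean log2 value among those tested. All members were named, with, from each pathway list, genes past the threshold or, with none, the 2 of smallest unadjusted p; Met, Plxna3, Sema6d, Tek, Erg, Cldn5 and Sema3e were named after their values were seen. Members and lists were chosen with earlier results of these data known. Alternatives were 2 normalizations, 2 pseudocounts, 2 filters, 2 variance models, the clone number as a block and leaving out each clone.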

Additional observations from a re-analysis of the deposited data

How the results depend on the processing

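With 2 clones per group, 1 clone can decide a value. Over 13 alternatives the count of member probe sets called was 0, except without control clone 2, where Plxnd1 passed and the count was 1, so that leaving out a clone gave 0 to 1. Of 187 alternative values of member log2 changes, 6 changed sign. The settings that alter only the filter, the variance model or the block leave a log2 change as it is. Their values could therefore not change sign, and the 187 include them. Nor could leaving out a clone change the sign of the 10 probe sets whose groups do not overlap. The count of 6 is thus no measure of how stable the directions are. The sign changes were those of Plxna2 (-0.014 under median centring and -0.064 to 0.13 on leaving out a clone), Plxnb2 (-0.45 to 0.15 on leaving out a clone) and Sema3c (-0.37 to 0.063 likewise). The cause was not tested.

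Of all probe sets tested, 12 passed, with 4 under quantile normalization, 0 without the filter (2300 at an unadjusted p under 0.05), 7 with the robust variance model and 42 to 1150 on leaving out a clone, where 1 group has no spread of its own and the lone clone is assumed to vary like the others. With the clone number as a replicate block there were 110, and the same-numbered clones' deviations correlated at -0.0091. The labels do not say whether same-numbered clones were handled together, and this was not tested. The block called 0 members and put Plxnd1 at an adjusted p of 0.0553.

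The median of the 47 pathway genes was -0.070, with -0.12 under median centring, -0.032 without the filter, -0.028 with the mean over a gene's probe sets and -0.094 to 0.0062 on leaving out a clone. Under the filter at the 75th percentile only Plxnd1, Plxna2 and Sema3f 1425840_a_at have a value, so the count of 0 there covers these alone. The other member probe sets, those of Sema3a and Slit2 among them, did not pass it. Signal over background limits Robo1, Sema3c and the dim probe sets of Sema3a, Sema4d and Slit2.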
